A study of Homo sapiens with 32 samples.

Results

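Retinoic acid (RA) and palbociclib (PB) were compared directly with each other, through 8 of the 16 libraries of histone H3 lysine 27 acetylation (H3K27ac) that the series holds: 4 from RA-treated and 4 from PB-treated cells. The series counts 32 samples in all, since each of the 16 ChIP libraries has an input sample. The cells were SK-N-BE(2)C, an established human neuroblastoma line with amplified MYCN and of the adrenergic type, kept for 5 days in RA alone, in 1 µM PB alone, in both agents (PB+RA) or in the solvent DMSO, and all groups share that single line. The labels state no RA dose. The comparison covers the 92108 regions that the authors tabulated for both drugs. Each carries the authors' mean log2 concentration for RA and for PB, and the difference of these means contains no DMSO term. The concentration describes normalised reads over a whole region, not per base. Its levels therefore cannot be compared between regions of different width. The broad peaks of each library gave a replicated measure, the mean fold enrichment over input across a region, in which bases under no peak count as 1.

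H3K27ac marks active enhancers and promoters, so its level at a gene's start site and at nearby distal regions is widely used as a readout of regulatory activity. RA enters the nucleus and binds retinoic acid receptors, which sit with retinoid X receptors on paired half-sites in DNA and recruit acetyltransferases when the ligand is bound. Its classical targets include the enzymes and binding proteins that handle RA itself. PB inhibits the cyclin D-dependent kinases CDK4 and CDK6, which keeps the retinoblastoma protein bound to E2F factors and holds cells in G1. Adrenergic neuroblastoma cells depend on a circuit of transcription factors, among them HAND2 and GATA3, that also drives the synthesis of noradrenaline in the sympathetic lineage.

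The regions with the greatest gain in RA over PB included genes of RA metabolism, and several held the paired site that RA receptors read: a direct repeat of a half-site (AGGTCA as the base form, or its variant GGGTCA, or the variant AGTTCA, or lastly GGTTCA) with 5 bases between its copies. It was searched on both strands across the whole of each named region. A match was found in 11 of 78 searched regions called higher in RA and in 2 of 66 called higher in PB, the start-site regions of DBH and TH. Some named regions were chosen as retinoid genes, and with all tested regions searched whole a match stood in 2.49% of RA-higher, 0.893% of PB-higher and 1.29% of all tested regions. A match is a description of letters, not of binding. The sequences below are 6 of the 14 matches in the RA regions, from the GRCh37 (hg19) reference, 5′ to 3′ on the strand of the repeat, with the half-sites in capitals and 12 bases on either side.
CYP26A1, minus strand, chr10:94833548-94833588: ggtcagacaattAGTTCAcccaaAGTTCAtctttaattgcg
CYP26A1, plus strand, chr10:94831662-94831702: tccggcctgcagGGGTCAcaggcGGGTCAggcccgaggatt
RARB, plus strand, chr3:25469689-25469729: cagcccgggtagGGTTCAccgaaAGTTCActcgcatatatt
DHRS3, minus strand, chr1:12664596-12664636: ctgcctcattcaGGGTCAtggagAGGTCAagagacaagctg
NREP, plus strand, chr5:111320009-111320049: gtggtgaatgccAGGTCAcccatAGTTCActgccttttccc
DLG2, minus strand, chr11:84031228-84031268: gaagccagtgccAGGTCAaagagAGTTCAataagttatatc

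Regions higher in PB more often held the GATA site (AGATAA, or TTATCT on the opposite strand), which the adrenergic factors GATA2 and GATA3 recognise. Stretches from the PB-higher regions nearest to GATA3, CHGA and HAND1 are shown on the plus strand of the same reference, with each GATA site in capitals.
GATA3 start-site region, chr10:8113670-8113801: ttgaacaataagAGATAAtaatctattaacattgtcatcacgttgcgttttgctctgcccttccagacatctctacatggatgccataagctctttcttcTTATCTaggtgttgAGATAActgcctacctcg
CHGA distal region, chr14:93350634-93350771: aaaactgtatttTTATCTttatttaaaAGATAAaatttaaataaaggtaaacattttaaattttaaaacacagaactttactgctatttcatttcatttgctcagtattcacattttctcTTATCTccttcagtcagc
HAND1 distal region, chr5:153896883-153896929: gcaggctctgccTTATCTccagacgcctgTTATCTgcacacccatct

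Read depth per library is unknown here, and the extent of the peaks stands in for library yield. Peaks covered 145 ± 7.55 Mb in RA libraries and 119 ± 11.4 Mb in PB libraries (SD, n = 4 each), with no overlap between the groups (two-sided exact permutation test over 70 arrangements, p = 0.0286, the smallest it can give, adjusted p = 0.0857 over 6 library measures). The median GC content of the peaks was 51.2 ± 0.523% in RA and 49.7 ± 0.537% in PB libraries, also without overlap (exact p = 0.0286, adjusted p = 0.0857), and was 47.8 ± 0.551% in PB+RA and 51.8 ± 0.864% in DMSO. The number of peaks was 87210 to 104392 in RA and 74677 to 93704 in PB libraries, ranges that overlap (exact p = 0.0571, adjusted p = 0.114). None of the 6 library measures passed an adjusted 0.05. Replicates 1 and 2 stood apart from replicates 3 and 4 in both groups: enrichment correlated, across the 31013 regions with a peak in all 8 libraries, at 0.951 and 0.946 within these pairs of RA libraries against 0.888 to 0.898 across them, and at 0.957 and 0.927 against 0.848 to 0.876 in PB. Of 9 adrenergic markers, 8 had a peak within 3 kb of a start site in all 4 libraries of RA and of PB, and PHOX2A, the exception, had none in PB. Of 14 immune and 12 endothelial genes, 4 and 3 had one in all RA libraries and 5 and 3 in all PB libraries, with no peak at 7 and 8 in RA and at 9 and 9 in PB.

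RA and PB cells differed at many of the acetylated regions, in both directions. A region was tested where at least 4 of the 8 libraries, of whichever group, had a peak (57231 regions), and was called at a Benjamini-Hochberg adjusted p under 0.05 in limma with a log2 enrichment difference beyond 0.5. In this comparison 10398 regions (18.2% of those tested) were higher in RA and 8512 (14.9%) were higher in PB. The authors' concentrations had the same sign at 10396 of the first and at all 8512 of the second, although both measures come from the same libraries. Within replicates 1 and 2 alone and within replicates 3 and 4 alone, the enrichment difference kept its direction at 10388 of the RA-higher and at 8512 of the PB-higher regions, which the calls on all 8 libraries nearly fix and which is no support for them. Each group holds 4 replicates of a single line, so the p-values measure the spread between these samples.

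By size, the concentration was more than 1 log2 unit higher in RA at 13357 of all 92108 regions (14.5%) and more than 1 unit higher in PB at 7871 (8.55%). Beyond 2 units the counts were 1910 for RA and 834 for PB, and beyond 3 units 209 and 34. The median difference of RA minus PB over all regions was 0.19 log2 units, and concentration differences are printed here without removing that shift. With the shift removed, 9533 regions were more than 1 unit higher in RA and 10893 in PB, so the excess of RA-higher regions at this size goes with the shift.

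**Figure D1:**
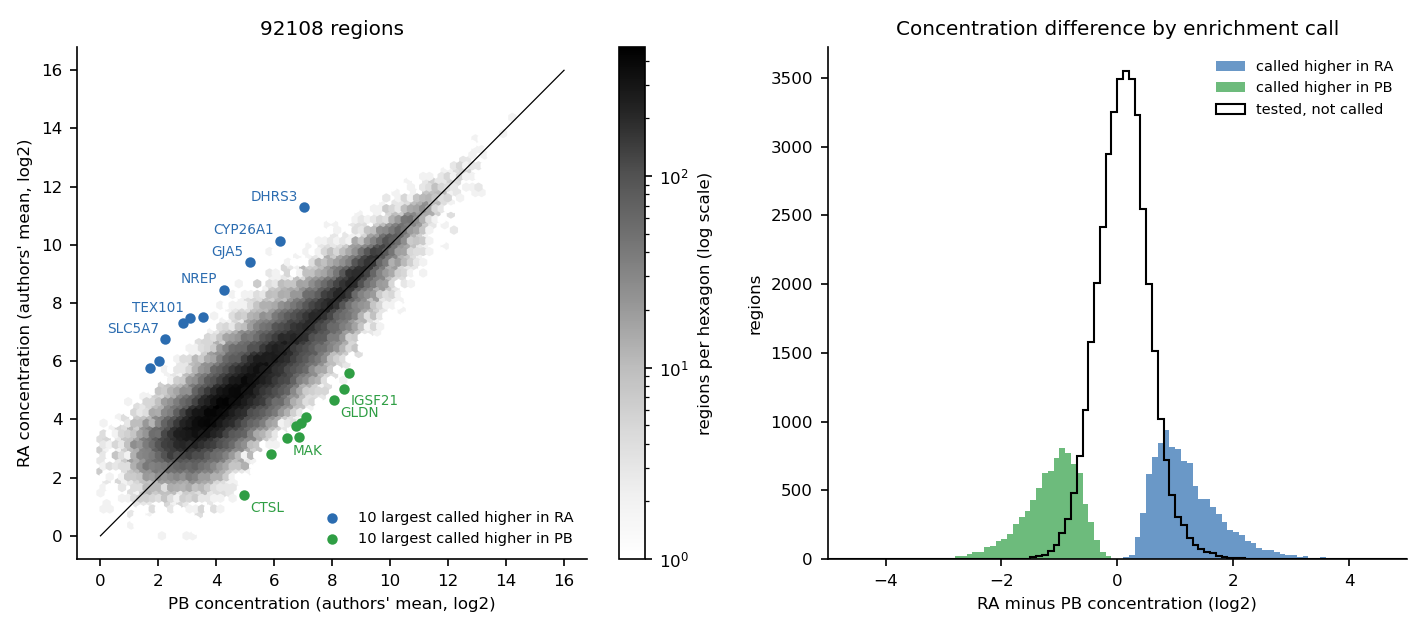
The left panel plots the authors' mean log2 concentration in RA (vertical axis) against PB (horizontal axis) for 92108 regions, shaded by the number of regions per hexagon on a log scale, with the 10 largest differences called in each direction as coloured points. The right panel counts tested regions by the RA minus PB concentration difference: the 10398 called higher in RA lie almost wholly right of 0 and the 8512 called higher in PB left of 0, with uncalled regions between.

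Peak occupancy gave an on-or-off view. A peak was present in all 4 RA and no PB library at 2383 regions (2.59%) and in all 4 PB and no RA library at 1334 (1.45%), while 31013 regions had one in all 8. The 2383 and the 1334 were all tested, but passed the peak filter only through the drug that had the peaks. The other drug stood at the set value of 1 there, so calls at these regions are no further support. At the 2383 RA regions, 972 (40.8%) had a peak in all 4 PB+RA libraries and 362 (15.2%) in none, and 1249 (52.4%) had a peak in no DMSO library against 162 (6.80%) with a peak in all 4. The 1334 PB regions looked different in DMSO: 402 (30.1%) had a peak in all 4 DMSO libraries and 232 (17.4%) in none. In PB+RA, 356 (26.7%) of them had a peak in all 4 libraries and 247 (18.5%) in none.

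The PB+RA and DMSO levels, which played no part in the calls, describe each class. At RA-higher regions the median concentration was 7.07 in RA, 5.80 in PB, 6.71 in PB+RA and 6.14 in DMSO. At PB-higher regions it was 5.83 in RA, 6.99 in PB, 6.42 in PB+RA and 6.58 in DMSO. By median, DMSO therefore lay between the drugs in both classes, and PB+RA lay nearer to RA in the first and about midway in the second. Each class was chosen for a gap between the drugs, which by itself tends to leave another group between them. Single regions differed: DMSO lay below both drugs at the CYP26A1 start site (5.55, against 6.20 in PB) and above both at that of E2F7 (8.69, against 8.01 in RA).

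The retinoid handling genes formed the clearest group on the RA side. Of 17 with an assigned region (nearest protein-coding start site within 100 kb), 14 had at least 1 region called higher in RA and 1 of these, ALDH1A2, also had one called higher in PB. Over all 14999 genes with a region those shares were 31.4% and 20.1%. A gene with more regions has more chances of a call, which raises such shares in lists rich in regions. The share of tested regions is therefore also given for each list compared with all genes. Over all genes, 18.4% of tested assigned regions were higher in RA and 12.04% higher in PB, against 61.5% and 1.28% for the retinoid genes. At the start sites themselves, 14 of 15 tested regions were called higher in RA and none in PB, against 20.1% and 5.44% of all 16349 tested regions within 3 kb of a start site. When each library was first centred within 10 classes of GC content (GC centring), 12 of the 15 were called higher in RA and none in PB, with RXRA and ALDH1A3 no longer called and the concentration difference at RXRA turning to -0.0069, in place of 0.68. STRA6, which encodes the membrane receptor for retinol-binding protein, was the one that did not pass (concentration difference -0.10). Its region spans 156047 bases and is centred in CCDC33, so its mean cannot show whether the STRA6 start itself differs.

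CYP26A1, which encodes the hydroxylase that clears RA, carried enrichments of 6.88, 6.33, 6.48 and 8.02 over its start site (chr10:94827561-94840735) in RA libraries, and 1.00, 1.00, 1.02 and 1.00 in PB libraries. In PB+RA it stood at 13.8, 9.90, 12.3 and 11.3, and all 4 DMSO libraries were at 1, that is, without a peak. RA and PB did not overlap, the concentration difference was 3.95 (10.15 against 6.20), and the log2 enrichment difference was 2.73 ± 0.189 (SE, limma adjusted p = 5.84e-06). That enrichment difference and its SE rest partly on the value of 1 set for PB libraries without a peak. Its paralogue CYP26B1 had a start-site peak in 3 RA and no PB library and so was not tested, with enrichments of 1.00, 1.099, 1.38 and 1.46 in RA, 1.00 in all 4 PB, and 2.30 to 4.40 in PB+RA.

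DHRS3, a retinaldehyde reductase that returns retinaldehyde to retinol, had 10.7, 10.5, 7.45 and 8.40 in RA libraries and 1.18, 1.23, 1.16 and 1.02 in PB libraries at its start site (chr1:12650127-12670237). The groups lay far apart, with a concentration difference of 4.26 and an enrichment difference of 2.95 ± 0.166 (SE, limma adjusted p = 1.86e-06). PB+RA libraries were at 8.13 to 13.7 and DMSO libraries at 1.04 to 1.16. The region lay in a longer stretch: 18 consecutive tested regions over 265 kb at DHRS3, VPS13D and AADACL4 were all called higher in RA. Their median concentration difference was 2.81.

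The receptors and binding proteins followed the same direction. RARB, an RA receptor gene that is itself a classical RA target, had 5.93, 5.47, 6.72 and 6.997 in RA libraries and 1.34, 1.30, 2.04 and 1.65 in PB libraries at the start-site region holding the repeat printed above (chr3:25465370-25477765), a concentration difference of 2.54 (limma adjusted p = 0.000125). RARA had 12.5 to 18.7 in RA and 6.37 to 11.4 in PB libraries, without overlap but with a smaller concentration difference of 0.91 (limma adjusted p = 0.00302). CRABP2, a cytoplasmic carrier that delivers RA to the receptor, had 13.1 to 16.5 in RA and 3.71 to 4.98 in PB libraries, a concentration difference of 1.85. Its relative CRABP1 had 6.14 to 6.62 in RA and 1.51 to 2.07 in PB libraries, a difference of 2.11. TGM2, the transglutaminase long used as a marker of RA response, had 4.03 to 5.05 in RA and 1.15 to 1.33 in PB libraries, yet 1.00 to 2.21 in PB+RA libraries. RA and PB did not overlap at any of these 5 genes. All 5 were called on the same 8 libraries, so this adds no support to the calls.

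ALDH1A2, an enzyme that makes RA, had 2 regions called higher in RA and gave the only opposite call in the list. An intronic region shared with AQP9, 24.8 kb from a start site (chr15:58455820-58462287), had 1.40 to 1.62 in RA and 3.50 to 6.95 in PB libraries, a concentration difference of -1.82 (limma adjusted p = 2.5e-05). DMSO libraries, at 2.63 to 3.73, lay above the RA libraries and overlapped the PB libraries.

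HOX genes, several of which respond to RA in development, had a called region higher in RA at 6 of 18 genes (33.3%, close to the 31.4% of all genes) and higher in PB at none. Per tested region the RA share was 42.9%, above the 18.4% over all genes, but only 14 HOX regions were tested. At start sites 9 of 13 were called higher in RA, against 20.1% of all start-site regions. However, HOXC5, HOXC6, HOXC8 and HOXC9 share a single region (concentration difference 0.75), as do HOXD3 and HOXD8 (1.04). No start-site region was found at HOXA2, HOXB1 or HOXB2.

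**Figure D2:**
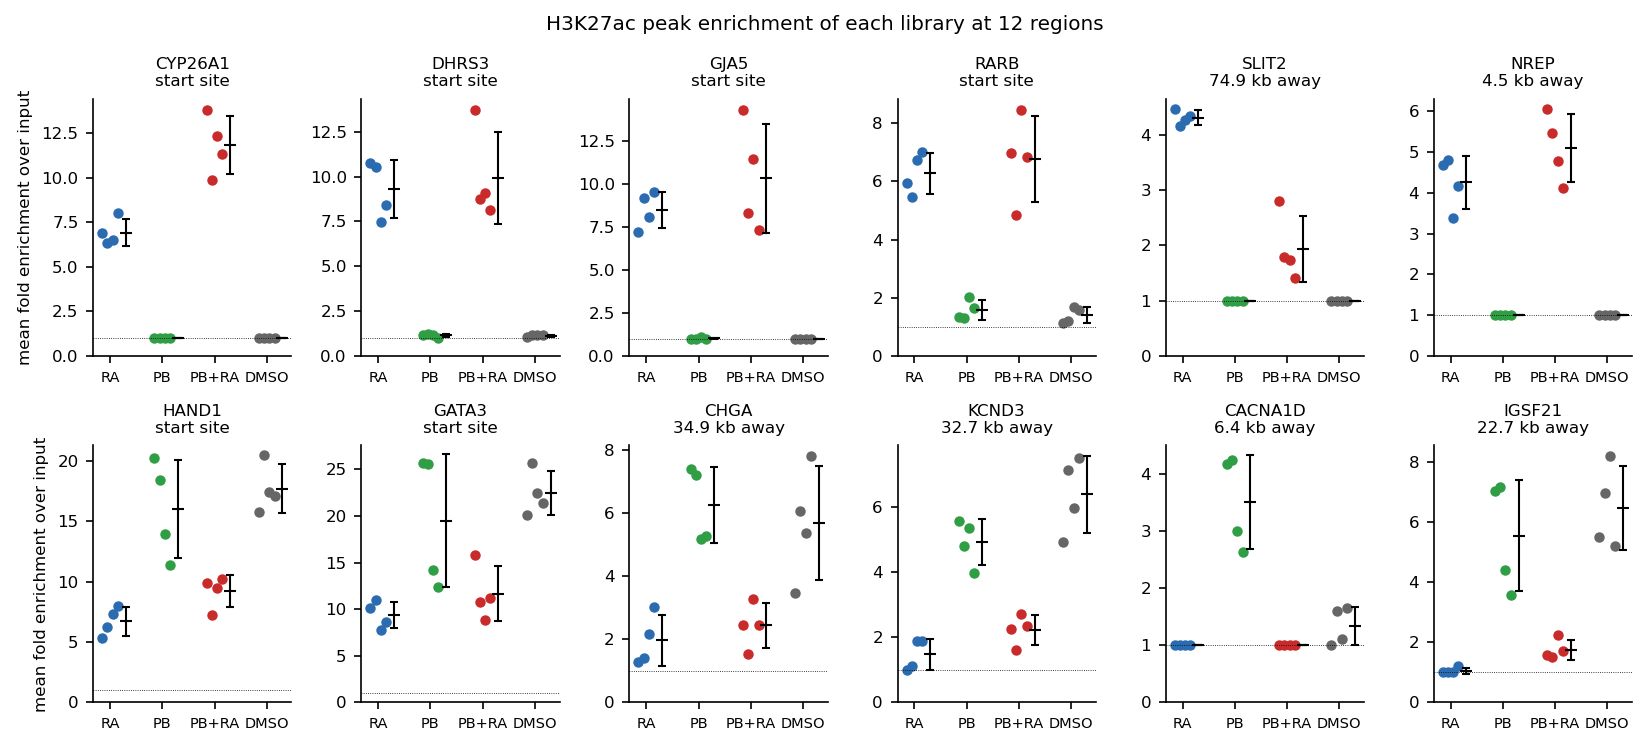
Each panel plots the mean fold enrichment over input of every library at 1 region, with RA, PB, PB+RA and DMSO along the horizontal axis, bars for the mean and SD of 4 libraries, and a dotted line at 1, the value where no peak was called. At CYP26A1, DHRS3, GJA5, RARB, SLIT2 and NREP every RA library lay above every PB library, and at HAND1, GATA3, CHGA, KCND3, CACNA1D and IGSF21 every PB library lay above every RA library.

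Among the 10 RA-higher regions with the greatest concentration difference, 1 for each nearest gene, PB libraries had no peak or an enrichment of at most 1.23. They were nearest to SLC5A7 (4.54 log2 units), PAWR (4.45), TEX101 (4.38), DHRS3 (4.26), GJA5 (4.26), NREP (4.21), MAP3K8 (4.05), SULT1C3 (3.98), AHR (3.96) and CYP26A1 (3.95). SLC5A7 encodes the transporter that brings choline back into cholinergic terminals. Its region, 85.8 kb from a start site, had 3.18, 4.24, 3.22 and 2.86 in RA libraries and 1.00 in each PB library. GJA5, a gap junction gene, had 7.22 to 9.51 in RA and 1.00 to 1.08 in PB libraries at its start site. A library without a peak is set to 1, so enrichment differences, their SE and p-values from such pairs rest partly on that set value. In PB+RA, 9 of these 10 regions had a peak in all 4 libraries. The exception lay near MAP3K8, with 2.202 to 3.42 in RA libraries and no peak in any PB, PB+RA or DMSO library.

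The 10 regions with the greatest difference towards PB were smaller in size. They were nearest to CTSL (-3.56), ZSCAN31 (-3.47), GLDN (-3.40), IGSF21 (-3.34), GPC3 (-3.08), MAK (-3.06), CACNA1D (-3.06), CCNG1 (-2.997), DDX18 (-2.99) and IL12B (-2.99). At an intron of IGSF21, a neuronal cell-surface protein gene (chr1:18456979-18461848), RA libraries had 1.00, 1.00, 1.00 and 1.21 and PB libraries 7.04, 7.16, 4.39 and 3.57, while DMSO libraries were at 5.18 to 8.18 and PB+RA at 1.496 to 2.22. The intronic GLDN region had no RA peak and 2.79 to 7.44 in PB libraries, and CACNA1D, a voltage-gated calcium channel gene, no RA peak and 2.63 to 4.24 in PB libraries. In both, replicates 1 and 2 of PB were higher than replicates 3 and 4, and every PB library exceeded every RA library. A peak was present in at least 2 of 4 DMSO libraries at all 10 of these regions, and in no DMSO library at 9 of the 10 RA-higher ones.

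The adrenergic core circuit was divided. Of 21 genes with a region, 8 (38.1%) had one called higher in RA and 11 (52.4%) one called higher in PB. Those shares were 31.4% and 20.1% over all genes. The circuit's tested regions were higher in RA at 15% and in PB at 17.2%, against 18.4% and 12.04% over all genes. At start sites, 4 of 19 were called higher in RA (PBX3, DACH1, SOX11 and TBX2) and 7 higher in PB (HAND1, GATA3, GATA2, SIX3 and ISL1 among them). These are 21.1% and 36.8%, against 20.1% and 5.44% of all start-site regions. The GATA2 call rests on the mean over the region, since with the highest enrichment in the region its difference changed sign (0.25) and did not pass. HAND2 did not pass, with 18.1 to 23.2 in RA and 16.8 to 27.9 in PB libraries (concentration difference -0.20, limma adjusted p = 0.361). Nor did TFAP2B (-0.35, enrichment difference under the size minimum). With calls centred within GC classes, ISL1 and TBX2 were lost and the counts became 3 higher in RA and 6 higher in PB.

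HAND1, a basic helix-loop-helix factor gene, had 5.32, 6.24, 7.35 and 7.97 in RA libraries and 20.3, 18.4, 13.99 and 11.4 in PB libraries at its start site (chr5:153846980-153870103). The groups did not overlap, and the concentration difference was -1.504, with an enrichment difference of -1.29 ± 0.158 (SE, limma adjusted p = 0.000122). PB+RA libraries were at 7.28 to 10.3 and DMSO libraries at 15.8 to 20.5. The distal HAND1 region with the GATA sites printed above, 24.5 kb from a start site, had 2.26 to 2.99 in RA and 5.48 to 10.98 in PB libraries (-1.89). GATA3, a zinc finger factor gene of the sympathetic lineage, had 10.1, 10.99, 7.82 and 8.63 in RA libraries and 25.7, 25.5, 14.2 and 12.4 in PB libraries (chr10:8086404-8118952), also without overlap. Its concentration difference was -1.09, with an enrichment difference of -1.04 ± 0.171 (SE, limma adjusted p = 0.00069). PB+RA libraries ranged from 8.87 to 15.8 and DMSO libraries from 20.1 to 25.6. At both genes PB replicates 1 and 2 were above replicates 3 and 4.

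The catecholamine genes leaned to PB. Of 13, 2 (15.4%, MAOA among them) had a region called higher in RA and 9 (69.2%) one higher in PB. Over all genes the shares were 31.4% and 20.1%. The tested regions of these 13 genes were higher in RA at 7.84% and in PB at 25.5%, against 18.4% and 12.04% over all genes. At 11 tested start sites none was called higher in RA and 4 (36.4%) were higher in PB. Over all start-site regions the shares were 20.1% and 5.44%. TH, the first enzyme of catecholamine synthesis, had 4.50 to 5.63 in RA and 5.37 to 11.5 in PB libraries, which overlap in PB replicate 4 (concentration difference -0.85, limma adjusted p = 0.00195). DBH, which turns dopamine into noradrenaline, likewise had 5.60 to 7.54 in RA and 6.60 to 11.8 in PB libraries (-0.59, limma adjusted p = 0.00884), and its enrichment difference of -0.53 went under the size minimum when any 1 of 3 libraries (RA replicate 3, RA replicate 4 or PB replicate 1) was left out. DDC (-0.63) and CYB561 (-1.33) were the other start sites called. The study's retino-sympathetic set (RARA, RARB, SOX4 and MEIS1) had 3 of 4 genes called higher in RA and none in PB. Its tested regions were higher in RA at 48.1% and in PB at 0%, against 18.4% and 12.04% over all genes. MEIS1 did not pass, and a region 69.7 kb from SOX4 had 9.63 to 12.5 in RA and 1.00 to 1.80 in PB libraries (concentration difference 3.65).

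**Figure D3:**
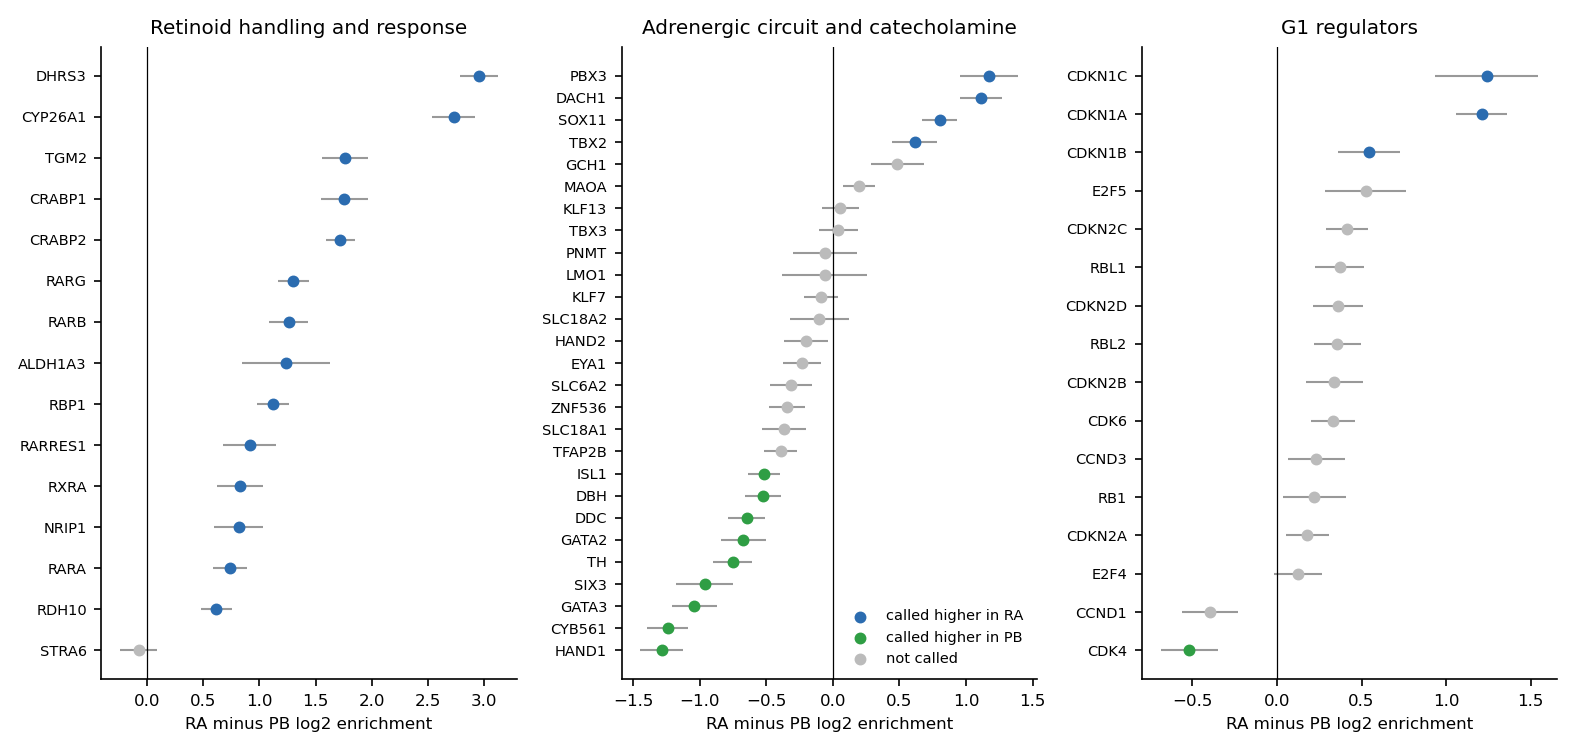
RA minus PB difference in log2 peak enrichment at start-site regions in 3 gene lists, less the genes not reported here, with bars for the standard error from limma on 4 RA and 4 PB libraries and points coloured by call. Of the retinoid genes, 14 of 15 lie on the RA side and are called, the adrenergic and catecholamine genes shown spread from PBX3 to HAND1, and among the G1 regulators CDKN1C, CDKN1A and CDKN1B are called higher in RA and CDK4 higher in PB.

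Secretory, axonal and channel genes were called higher in PB more often than the 20.1% of all genes. Of 34 vesicle and release genes, 11 had a region called higher in RA (32.4%, close to the 31.4% of all genes) and 13 higher in PB (38.2%). Counted per tested region, the RA share was 11.7%, below the 18.4% over all genes, and the PB share 29.4%, above 12.04%. Dense-core granule proteins were among those higher in PB: CHGB, a granin, had 9 of its 10 regions called higher in PB and none in RA, and at one of them RA libraries had no peak and PB libraries had 3.02 to 3.65. CHGA, the marker granin of chromaffin cells, had 1.29, 1.41, 2.16 and 3.03 in RA and 7.40, 7.21, 5.19 and 5.27 in PB libraries at the distal region printed above, a concentration difference of -2.39 without overlap. Other granule proteins were not on the PB side. SCG2, a secretogranin, had 2 of 22 regions called higher in RA and none in PB. Such counts per gene take in regions that were not tested, here and below. Over all genes, 8453 of 72309 assigned regions were called higher in RA, a share above that of SCG2, and 5535 higher in PB. At the SCG2 region 92.9 kb from a start site, RA libraries had 2.31 to 4.85 and PB libraries 1.00 to 1.48. The start site of VGF was called higher in RA (0.598), a call lost with GC centring. The neuropeptide genes split: NPY had 6 of 19 regions called higher in PB, whereas VIP had 6 of 16 and GAL 3 of 3 called higher in RA. Near VIP, at 12.1 kb, RA libraries had 3.06 to 3.61 and PB libraries 1.00 to 1.19.

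Of 33 ion channel genes, 8 had a region called higher in RA (24.2%) and 19 one higher in PB (57.6%). Over all genes the shares were 31.4% and 20.1%. Of the tested channel regions, 7.09% were higher in RA and 26.5% in PB, against 18.4% and 12.04% over all genes. At start sites the counts were lower: 2 of 28 were called higher in RA (7.14%) and 3 higher in PB (10.7%). Over all start-site regions the shares were 20.1% and 5.44%. The 3 were SCN1A, SCN2A and SCN3B, sodium channel subunits. KCND3, a potassium channel gene, had 10 of 21 regions called higher in PB, and the one shown in the plot of single regions had 1.00 to 1.90 in RA and 3.99 to 5.56 in PB libraries. The calcium channel subunit gene CACNA2D1 had 12 of 31. The same count over all genes was 5535 of 72309 assigned regions.

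Of 39 axon and neurite genes, 14 had a region called higher in RA (35.9%) and 20 one higher in PB (51.3%). Over all genes the shares were 31.4% and 20.1%. Tested axon regions were higher in RA at 12.2% and in PB at 22.4%, against 18.4% and 12.04% over all genes. The RA share thus lay above that of all genes by gene and below it by region. NRCAM, a neuronal adhesion molecule, had 18 of 33 regions called higher in PB and none in RA, and CNTN1 had 12 of 29. Tested or not, 72309 regions were assigned over all genes, with 5535 called higher in PB and 8453 in RA. Other members were called the opposite way: DPYSL3, a growth cone protein, had 11 of 20 regions called higher in RA. SLIT2, an axon guidance ligand, had 5 of 10, and at 1 of these, 74.9 kb from a start site, RA libraries had 4.15 to 4.47 and PB libraries no peak (concentration difference 3.84).

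Of 28 postsynaptic genes, 10 (35.7%) had a region called in each direction, against 31.4% and 20.1% of all genes, and with GC centring the counts were 7 higher in RA and 13 higher in PB. Without GC centring, their tested regions were higher in RA at 22.9% and in PB at 20%, against 18.4% and 12.04% over all genes. DLG2, a scaffold of the postsynaptic density, had more RA-higher regions than any other gene, 24 of 94, and none higher in PB. At its start-site region (chr11:84019668-84034299) RA libraries had 6.34, 5.71, 5.71 and 6.65 and PB libraries 1.34, 1.31, 1.45 and 1.26, a concentration difference of 2.81. AUTS2 (21 of 83) and MAPKAP1 (19 of 42) followed on the RA side. KCNMA1 (19 of 83, with 7 higher in RA), NRCAM (18 of 33) and ASTN2 (17 of 50) led on the PB side. This ranking is by count and favours genes with many regions. All genes together had 8453 and 5535 of 72309 assigned regions called higher in RA and in PB.

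Matrix and mesenchymal genes were called higher in RA more often than all genes. Of 32 extracellular matrix and junction genes, 21 had a region called higher in RA (65.6%) and 12 one higher in PB (37.5%), both above the 31.4% and 20.1% of all genes, and at start sites the counts were 15 and 3 of 27 (11 and 3 with calls centred within GC classes). Of 28 genes of the mesenchymal state, 16 had a region higher in RA (57.1%) and 5 one higher in PB (17.9%), with 12 and 0 of 22 start sites (9 and 0 with GC centring). Of all start-site regions, 20.1% were higher in RA and 5.44% in PB. Per tested region the RA and PB shares were 34.1% and 17.1% for matrix and junction genes and 22.7% and 13.4% for mesenchymal genes. Over all genes they were 18.4% and 12.04%. The mesenchymal PB share thus lay below that of all genes by gene and slightly above it by region. NOTCH3, a Notch receptor gene, had 4.40, 5.25, 8.83 and 7.58 in RA and 1.17, 2.64, 1.00 and 1.20 in PB libraries (concentration difference 2.83). CCN1, a matricellular protein gene, had 4.12 to 4.85 in RA and 1.00 to 1.27 in PB libraries (2.70), and COL6A2, a collagen chain gene, 8.12 to 13.4 in RA and 1.00 to 4.02 in PB libraries (2.68). The groups were apart at all 3, which adds no support to calls made on the same libraries. All 3 start sites were rich in GC (72.8%, 64.6% and 72.5%) and had a DMSO peak in at least 3 of 4 libraries.

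Mesenchymal members on the PB side were few and distal: ZEB1 had 4 of 10 and TEAD1 9 of 35 regions called higher in PB. All genes together had 5535 of 72309. SNAI2, VIM, WWTR1, TEAD4 and RUNX1 were called higher in RA at their start sites, with concentration differences of 1.79, 1.24, 1.56, 2.16 and 2.18. Housekeeping genes gave 5 of 15 with a region higher in RA and 1 higher in PB (33.3% and 6.67%), so only the RA share was near that of all genes. The same held per tested region, at 18.75% and 2.08% against 18.4% and 12.04%.

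**Figure D4:**
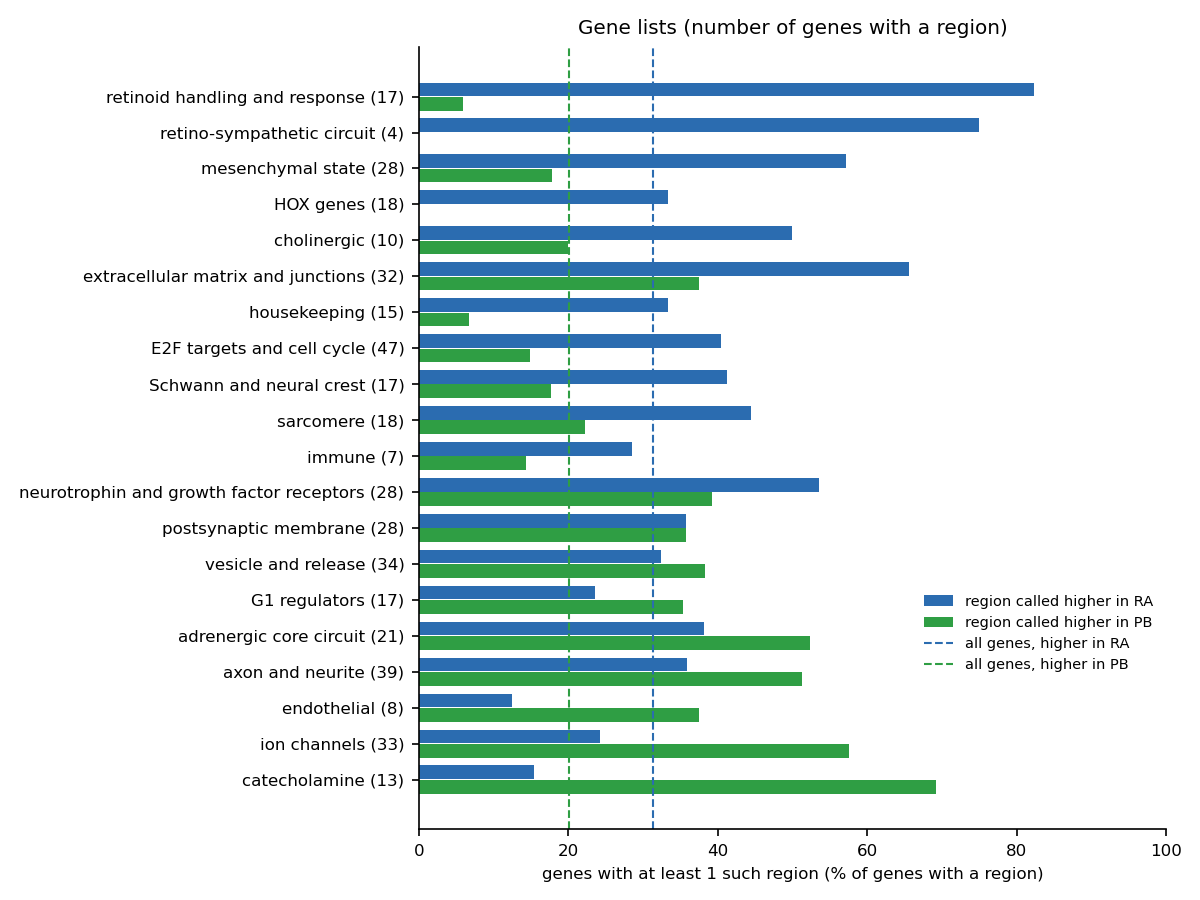
For each of 20 gene lists, bars give the share of genes with at least 1 region called higher in RA (blue) or in PB (green), with the number of genes that had a region in parentheses and dashed lines at the shares over all 14999 genes (31.4% and 20.1%). Retinoid genes stand at 82.4% and 5.88%, and catecholamine genes at 15.4% and 69.2%. The shares are not adjusted for the number of regions per gene, which differs between lists.

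E2F target and cell cycle genes were called only in the RA direction at their start sites, 15 of 48 against 0, with 20.1% and 5.44% over all start-site regions (10 and 0 with GC centring). E2F7 (1.17), EZH2 (1.101), CDK2 (1.09), MKI67 (0.99) and E2F8 (0.96) had the greatest concentration differences among those called. The DMSO concentration lay above both drugs at each of these. At E2F7 it was 8.69, against 8.01 in RA and 6.84 in PB. At MKI67 it was 9.72, against 9.13 and 8.14, and at E2F8 7.79, against 7.21 and 6.25. These start-site calls therefore do not place RA above the solvent, and the difference from DMSO was not tested. Most members did not pass, and PCNA (0.27), CCNB1 (-0.17) and PLK1 (-0.08) were among them. A distal region 47.4 kb from MKI67, the proliferation marker gene, had 2.69, 3.27, 2.999 and 2.73 in RA and 1.00, 1.36, 1.14 and 1.00 in PB libraries (concentration difference 1.87). Counting distal regions too, 19 of 47 genes (40.4%) had a region called higher in RA and 7 (14.9%) one higher in PB. Those shares over all genes were 31.4% and 20.1%. Of the list's tested regions, 22.8% were higher in RA and 7.02% in PB, against 18.4% and 12.04% over all genes. A region 19.7 kb from MCM10, a replication initiation factor gene, had 1.22, 1.00, 1.00 and 1.00 in RA and 3.37, 3.698, 3.82 and 2.397 in PB libraries (-2.01), and distal regions of CCNE1 (-1.47) and POLA1 (-1.17) were also called higher in PB. The promoter of MCM6, a subunit of the replicative helicase, is shown because it holds an E2F site (TTTCCCGC, TTTGGCGC, TTTCGCGC, TTCCCGCC or TTGGCGCC, either strand) 4 times, overlaps included, and its start site was called higher in RA (0.48), a call lost with GC centring. It comes from RefSeq on GRCh38.p14, minus strand, from 250 bases before to 50 after the start, with matches in capitals.
MCM6, chr2:135876394-135876693: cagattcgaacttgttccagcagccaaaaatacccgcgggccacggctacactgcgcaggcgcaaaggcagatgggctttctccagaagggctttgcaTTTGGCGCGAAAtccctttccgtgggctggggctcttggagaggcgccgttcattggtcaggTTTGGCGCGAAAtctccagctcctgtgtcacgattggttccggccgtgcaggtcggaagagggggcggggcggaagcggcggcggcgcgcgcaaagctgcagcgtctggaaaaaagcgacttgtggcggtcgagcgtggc
Of 39 list genes matched in the promoter table, 18 held an E2F site, against 5.73% of 35116 promoters. That excess is no result of these data, since the list was written from E2F target and cell cycle genes. List genes counted with a single promoter each, a limit not set for all promoters. The share was 7 of 11 where the start site was called higher in RA and 11 of 28 where it was not called.

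The G1 regulators, which include PB's own targets, were called in both directions. Of 17 genes, 4 had a region called higher in RA (23.5%, against 31.4% of all genes) and 6 one higher in PB (35.3%, against 20.1%). For tested regions the shares were 14.6% and 16.7%, against 18.4% and 12.04% over all genes. CDKN1A, the CDK inhibitor p21, had 5.86, 5.68, 6.14 and 5.59 in RA and 2.44, 2.90, 2.74 and 1.78 in PB libraries at its start site, a concentration difference of 1.43 (limma adjusted p = 0.000133) without overlap, and PB+RA libraries had 2.99 to 5.95. In DMSO libraries CDKN1A had 2.50 to 5.98, which overlaps both RA and PB. CDKN1C (p57) had 1.51 to 3.68 in RA and no peak in any PB or PB+RA library at its start site. All 4 DMSO libraries had a peak there, at 1.44 to 3.27. The concentration difference was 2.66, with 5.92 in RA, 3.26 in PB and 5.62 in DMSO. This region had 74.8% GC, and its call was lost with GC centring. Another CDKN1C region, 17.5 kb from a start site, had 1.00 to 1.29 in RA and 1.66 to 3.50 in PB libraries (-1.37). CDKN1B (p27) was also called higher in RA at its start site (0.59), a call that 6 of 8 single-library omissions removed.

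The kinase and its partner were near the limit. CDK4 had 6.61 to 10.2 in RA and 6.94 to 14.1 in PB libraries, which overlap, and was called higher in PB (enrichment difference -0.52, limma adjusted p = 0.0295) with a concentration difference of only -0.14. Leaving out any of 5 single libraries removed that call. CCND1, the cyclin D1 gene, had 11.6 to 12.4 in RA and 9.63 to 21.6 in PB libraries and was not called (-0.41, limma adjusted p = 0.0801), although it was called higher in PB with GC centring. At both genes PB replicates 1 and 2 lay above PB replicates 3 and 4.

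Position and base composition went with the direction. Within 3 kb of a start site, 20.1% of 16349 tested regions were higher in RA and 5.44% higher in PB. From there to 100 kb the shares were 17.5% and 15.7%, and beyond 100 kb 17.3% and 26.4%. In the lowest of 10 GC classes 17.3% were higher in RA and 24.9% in PB, and in the highest 35.5% and 1.56%. The median GC content was 48.2% at RA-higher and 43.0% at PB-higher regions, with 48.5% at uncalled ones. Since the median GC content of peaks also did not overlap between RA and PB libraries, acetylation and library composition cannot be told apart in these shares. When libraries were centred within GC classes, 2010 start-site regions were called higher in RA and 1196 higher in PB, in place of 3278 and 889.

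Direct repeats with 5 spacer bases, counted in the central 500 bases, were present at 47 RA-higher regions (0.452%), 5 PB-higher regions (0.0587%) and 0.190% of all tested. The same half-sites spaced by 7 bases, a spacing no RA receptor is known for, were present at 0.0577%, 0.141% and 0.0909%. By size, the 5-base repeat was found at 25 of 1910 regions more than 2 log2 units higher in RA (1.31%) and at 1 of 834 more than 2 units higher in PB (0.12%). The GATA site was found at 24.5% of RA-higher, 38.7% of PB-higher and 27.4% of all tested regions. Away from start sites in the fifth GC class, the same site was at 27.3% of RA-higher and 37.8% of PB-higher regions, and in the lowest class at 50.8% and 50%, so the gap depended on the class. Matches of the AP-1 site TGACTCA were at 12.8%, 10.1% and 10.9%.

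**Figure D5:**
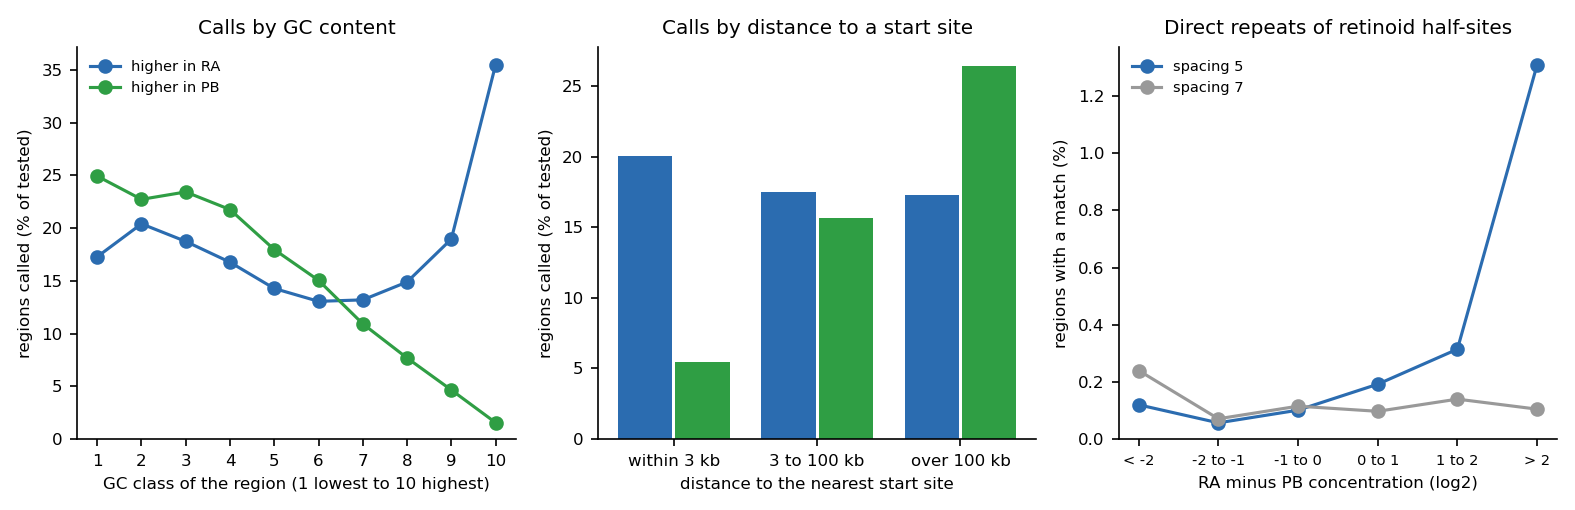
The left and middle panels give the share of tested regions called higher in RA (blue) or PB (green) by GC class and by distance to the nearest start site; PB calls decline from 24.9% in the lowest GC class to 1.56% in the highest. The right panel gives the share of regions with a direct repeat of retinoid half-sites by RA minus PB concentration difference, which reaches 1.31% above 2 log2 units for the 5-base spacing and 0.105% for the 7-base spacing.

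Called regions also came in runs with the same direction, counted over consecutive tested regions, with untested regions between them skipped. By number of regions, the longest on the RA side held 19 regions over 320 kb at TNS3 and PKD1L1 on chromosome 7 (median concentration difference 2.13), followed by the 18 at DHRS3, 17 over 514 kb at PRKCH, HIF1A and SLC38A6 (1.54) and 16 at CD180 and MAST4 (1.58). On the PB side the longest by number held 18 regions at DMD on chromosome X (-1.66), spread over 3553 kb. Next came 13 over 192 kb at TEAD1 and PARVA (-1.098), and 12 over 219 kb lay near DDX18 (-2.03). The share of PB-higher calls ranged from 4.76% of tested regions on chromosome 19 to 22.4% on chromosome 18.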

How the data were processed

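H3K27ac ChIP-seq was compared between 4 RA and 4 PB libraries of SK-N-BE(2)C cells, and PB+RA and DMSO served only for levels. Groups and replicate numbers came from the titles. The study's methods call the replicates biological. Per the submitters' processing notes, the authors used fastp 0.12.4 for trimming, Bowtie2 2.4.4 for alignment against hg19, MACS2 2.2.7.1 for broad peaks in each library and DiffBind 3.4 for the group comparisons. Each deposited peak carries the authors' fold enrichment over input, a ratio, and the authors' −log10 q. The deposited DiffBind tables hold the authors' mean log2 concentration per group, which was used without SD or n. They also hold the authors' log2 fold, p-value and FDR against DMSO, which were not used. Deposited region starts count from 0 and are printed from 1.

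Both tables were joined on position (92108 regions). For each library the mean enrichment over a region was taken with bases under no peak at 1, log2 transformed, and centred on its median over regions with a peak in all 8 libraries. It was tested with limma 3.58.1 (R 4.3.3, trended eBayes, no replicate block, Benjamini-Hochberg over 57231 regions). On simulated data for this comparison, 83 of 100 regions changed by 2 log2 units and 25 of 100 changed by 1 were recovered, with 3 false calls. The simulated noise was normal and independent between libraries, without the value of 1 set for missing peaks or the likeness within replicate pairs. Far fewer regions were changed than were called in the real data. Neither the recovery nor the false calls therefore carry over to the real calls. Enrichment depends on where peaks were called, and depth is unknown, so a missing peak need not mean absent acetylation. Library measures were tested by a two-sided exact permutation test (Python 3.11.15, SciPy 1.17.1). Regions were assigned to the nearest protein-coding start site of the GRCh37 annotation within 100 kb, which need not be the gene they regulate, and a region near several start sites counts for each in start-site counts.

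Same-numbered RA and PB libraries deviated together (correlations 0.193, 0.129, 0.208 and 0.123), so the numbers were taken to pair the samples. Differently numbered libraries within replicates 1 and 2 or within 3 and 4 correlated as much (0.151 to 0.216), and those across these pairs of replicates were all negative, so the shared deviation follows these pairs and not each number.

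Named genes were the 10 largest called differences each way, the 3 largest each way per list, the start sites of the retinoid, adrenergic, retino-sympathetic and G1 lists, and the 3 genes with most called regions each way. A few genes that these rules name are not reported here, and list counts include them. Other list members, the motif stretches and the MCM6 promoter were picked after their values were seen. Members, lists and rules were chosen with earlier results of these data known. Alternatives covered scaling, GC centring, thresholds, peak filters, assignment distance, the pairing and single libraries.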

Additional observations from a re-analysis of the deposited data

Results flagged for a closer look

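Among 122 groups of 4 libraries at the regions printed here, 7 held a library apart from the other 3 by Dixon's criterion, which chance alone meets in about 1 group in 20. Most were a single weak peak where the others had none: RA replicate 4 at 1.21 against 1 at IGSF21, RA replicate 3 at 1.29 against 1 in the distal CDKN1C region, PB replicate 4 at 1.27 against 1 at CCN1, and PB replicate 3 at 1.08 against 1 at GJA5, at 1.02 against 1 at CYP26A1 and at 1.19 against 1 near VIP. PB replicate 2 was at 2.64 against 1.20 at the NOTCH3 start site. Each of these libraries stayed on its own side of the other drug's 4 libraries.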

How the results depend on the processing

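The numbers of calls depended on the rules more than on single libraries. Calls higher in RA and in PB were 5147 and 4305 over regions with a peak in all 8 libraries, 5348 and 3529 with the highest enrichment in a region, 2583 and 2312 with peaks at −log10 q of at least 5, 4749 and 4129 at a log2 minimum of 1, and 4713 and 4769 with quantile normalization of the regions with 8 peaks, an alternative chosen after seeing the data. Leaving out single libraries gave 8660 to 10416 and 7473 to 8045. With the replicate block, which uses the pairing, they were 11557 and 9072, no named region changed its call, and no library measure passed, since an exact paired test of 4 pairs cannot go below 0.125. With replicates 1 and 2 alone (added later) they were 12636 and 8345, and with 3 and 4 alone 7547 and 6292.

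Concentration differences beyond 0.5 numbered 30404 and 17617, beyond 2 1910 and 834, and beyond 1 at a mean concentration of at least 5 5558 and 4398. Regions with peaks in all libraries of one drug and none of the other numbered 446 and 412 with the stricter peaks, 9249 and 5834 in replicates 1 and 2, 7323 and 3480 in replicates 3 and 4 (both added later), and 2786 to 3313 and 1484 to 2323 with a library left out. The value of 2323 came without PB replicate 4. With the stricter peaks the RA minus PB difference changed sign for the number of peaks (-752), the median enrichment (0.40) and the share near start sites (3.396 percentage points). The difference in median peak width, 9.50 bases, ranged from -48.8 to 63.5 with single libraries left out.

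Of 169 tested named regions, 120 kept their side of the threshold with the highest enrichment, 48 did not pass and the GATA2 start site changed sign (0.25). GC centring moved 21 of 174 concentration differences and turned RXRA at its start site (-0.0069). Counting regions within 10 kb of a start site moved 11 of 40 gene-list shares, and searching whole regions moved all 45 motif shares. Single omissions removed a call in 63 of 1352 fits. The causes were not tested, and unknown depth limits what an absent peak shows.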
